A study of Homo sapiens with 16 samples.

Results

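K562 cells sampled at 6 h and at 24 h of treatment with phorbol 12-myristate 13-acetate (PMA) were compared by RNA sequencing, as a step in a course of 8 time points. K562 is an established human leukaemia line, labelled WT for genotype, that carries erythroid features and can take on features of megakaryocytes, the large cells that release platelets. The members are the 4 libraries that the labels place at 6 h (360 min) and 24 h (1440 min), 2 replicates at each time, out of 16 libraries in all. All 4 libraries came from cells in 25 nM PMA, and the labels name medium changes after 24 h and 48 h. The labels name no untreated culture kept alongside for 24 h, so time in PMA and time in culture cannot be told apart. Nothing in the labels says that the replicates came from separate cultures, so p-values measure the spread between these libraries only. All 6 marker genes used for K562 identity were above 1 TPM (the share of transcripts after division by their length) at both times, and CDKN2A, which is deleted in this line, had 0 reads in each of the 4 libraries. RNA came from whole cultures, so fewer cells of a type and less RNA per cell cannot be told apart.

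PMA stands in for diacylglycerol and activates protein kinase C, which signals through RAF, MEK and ERK to immediate-early genes such as FOS and EGR1. These genes are induced before any new protein is made, and their products in turn drive or end later programmes, among them the dual-specificity phosphatases and Sprouty proteins that feed back on ERK. In K562 cells long exposure to PMA is known for growth arrest, spreading on the dish and a shift away from haemoglobin production towards megakaryocyte genes.

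Library totals were 27285773 and 34125287 estimated reads at 6 h and 33073509 and 54056289 at 24 h. Levels are given as CPM, read counts scaled to a common TMM-normalised library size, and in each pair of values replicate 1 comes first. A floor of 3 reads corresponded to 0.117 CPM at 6 h and 0.0795 CPM at 24 h. Mitochondrial genes took 2.53 and 4.45% of the matched reads at 6 h and 2.34 and 3.74% at 24 h, so this share went with the replicate number more than with the time. Across genes, which are not independent replicates, the log2 CPM of the libraries of a time point had Pearson r of 0.982 at 6 h and 0.983 at 24 h. As a check for 1 library deposited under 2 names, replicates were compared with counting noise (chi-square per gene of 16.95 at 6 h and 19.9 at 24 h). They differed by more than that noise, which does not show that they came from separate cultures.

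A gene was called at a Benjamini-Hochberg adjusted p under 0.05 in the quasi-likelihood test of edgeR, over all 17559 genes that passed its low-count filter. Of these, 9943 were called (56.6%), 5413 higher at 24 h (30.8%) and 4530 lower (25.8%). Higher genes made up 54.4% of the calls. With libraries scaled to total counts in place of TMM they made up 65.5%, and the median log2 fold change of all genes moved from 0.00 to 0.12, so changes smaller than that depend on the scaling. Among called genes 2516 were at least 2-fold higher and 1627 at least 2-fold lower, and 199 and 92 differed by at least 16-fold. Both 24 h libraries lay above both 6 h libraries for 42.2% of all genes and below them for 40%. Of the called genes 99.95% moved the same way in replicate 1 and in replicate 2, against 89.3% of all genes tested. The calls were made from these same libraries, so the agreement of called genes is largely built into the call.

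The step of the members of the 17 gene lists described next was also taken within the libraries of each number. The labels tie the numbers to no shared culture or day, although same-numbered libraries deviated together between 6 h and 24 h (correlation 0.446). For the 145 members called higher and the 235 called lower that had reads in all 4 libraries, the step had the same sign in replicate 1 and in replicate 2. The calls used these same libraries, so this agreement is no separate evidence. The median gap between the replicates' steps was 0.0762 on the log2 scale for higher members and 0.0875 for lower members.

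**Figure D1:**
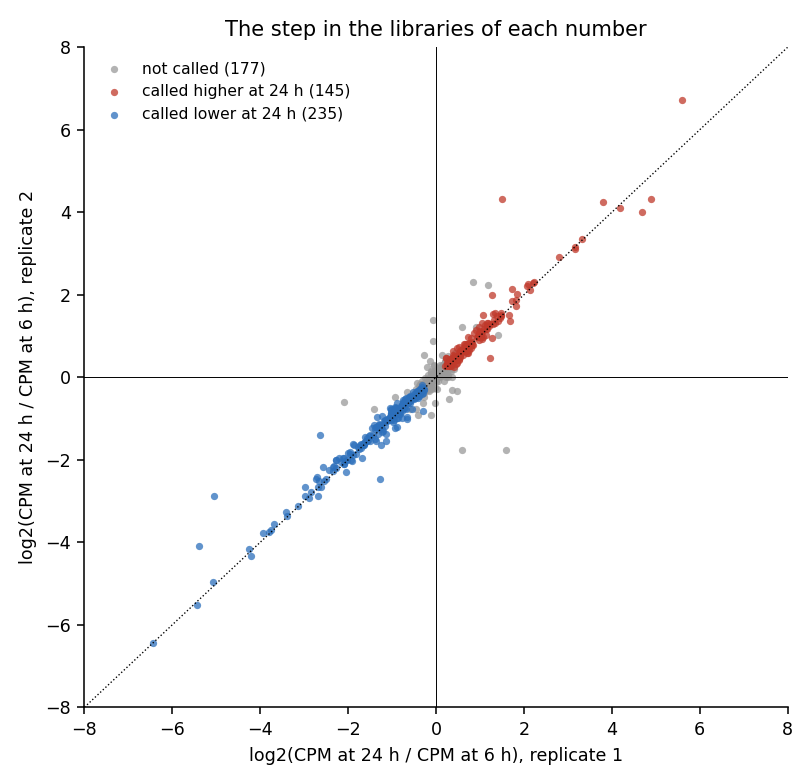
Step from 6 h to 24 h of each list member with reads in all 4 libraries, as log2 of the CPM ratio in replicate 1 (x axis) against replicate 2 (y axis), with the dotted line marking equal steps. The 145 members called higher lie at the upper right and the 235 called lower at the lower left, by calls made from the same libraries. The 177 members not called cluster around 0, with 145 of them of the same sign in both.

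Immediate-early genes mostly came down between 6 h and 24 h. The median level of the list was 7.38 and 7.35 log2 CPM at 6 h and 6.34 and 6.38 at 24 h, with 3.40 and 3.58 before treatment. Of 36 immediate-early and ERK feedback genes 35 were tested, 22 fell (62.9%, against 25.8% of all genes), 4 rose and 9 were not called. The median log2 fold change was −0.73, against 0.00 over all genes tested, and −0.61 with scaling to total counts. FOS, the partner of JUN in the AP-1 factor, was at 288 and 282 CPM at 6 h, then 32.7 and 32.4 CPM at 24 h (log2 fold change −3.13 with SE 0.11, adjusted p of 2.55e-10 by edgeR). Both 24 h libraries lay far below those of 6 h, yet above the 0 h mean of 6.13 CPM. KLF6, a zinc finger factor, had 2625 and 2778 CPM at 6 h, then 189 and 206 CPM at 24 h (log2 fold change −3.77 with SE 0.10, adjusted p of 2.26e-11 by edgeR), the largest fall of the list. EGR1 (chromosome 5, 138465490 to 138469315), a zinc finger factor induced by ERK, had 3266 and 3766 CPM at 6 h, then 1075 and 1302 CPM at 24 h (log2 fold change −1.56 with SE 0.19, adjusted p of 1.12e-05 by edgeR), and again the groups did not overlap. The other EGR genes also fell: EGR2 by 2.65, EGR3 by 2.30 and EGR4 by 2.58 on the log2 scale. FOSL1 and JUN, further AP-1 subunits, fell by 1.62 and 0.93.

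The ERK feedback genes split. DUSP4, a nuclear phosphatase of ERK, rose from 1.45 and 1.17 CPM at 6 h to 20.3 and 22.2 CPM at 24 h (log2 fold change 4.03 with SE 0.21, adjusted p of 5.12e-09 by edgeR). Its 0 h mean was 0.551 CPM, so the gene stayed low for the first hours and was high only from 24 h on. DUSP5, which acts on the same kinases, rose by 0.75 and SPRED2, an inhibitor of RAF activation, by 0.44, whereas DUSP1 fell by 1.29 and SPRY4 by 0.73. SPRY2, SPRED1 and DUSP6 had log2 fold changes of 0.19, 0.06 and −0.63 and were not called. NR4A3, an orphan nuclear receptor, was the remaining riser, with 4.7 and 4.18 CPM at 6 h, then 11 and 10.2 CPM at 24 h (log2 fold change 1.26 with SE 0.23, adjusted p of 0.000338 by edgeR), while its relatives NR4A1 and NR4A2 fell by 0.96 and 0.97. MYC was level, at a log2 fold change of 0.02. All 26 calls of this list were made again in each of the 4 fits that left out 1 library.

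Serum response factor, which ERK signalling and actin dynamics both feed, binds the CArG box. Of the 233 promoters of genes that fell at least 4-fold, 13 (5.58%) held a CArG box on either strand, against 1.14% of the 12153 promoters of genes tested, 0.859% of the 582 promoters of genes that rose at least 4-fold and 1.29% of all 27305 RefSeq promoters of the same 300 bases. The box was in 1 of 27 promoters of the immediate-early list (3.7%) and in 4 of 36 of the actin and adhesion list (11.1%). Among all called genes it was in 1.57% of promoters of lower and 0.983% of promoters of higher ones. The promoters run from 250 bases before to 50 after each start. EGR1 and ACTG1, which encodes cytoplasmic gamma-actin and is described further on, are shown because both were among the genes with the largest falls in CPM and both held the box. ACTG1 fell at least 4-fold, whereas EGR1, at −1.56 on the log2 scale, did not and is not among the 233. The sequences are from RefSeq (GRCh38.p14), 5′ to 3′ on the gene's strand, with the CArG boxes in capitals:
EGR1 (chr5:138465366-138465435, plus strand): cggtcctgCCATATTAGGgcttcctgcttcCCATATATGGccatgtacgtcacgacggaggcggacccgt
ACTG1 (chr17:81512854-81512923, minus strand): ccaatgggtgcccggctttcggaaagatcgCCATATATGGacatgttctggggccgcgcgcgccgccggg
The boxes of EGR1 began 105 and 83 bases before the start and that of ACTG1 94 bases before it. A match of letters is no measure of binding.

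The neutrophil chemokines of chromosome 4 showed the steepest falls among genes that were abundant at 6 h. CXCL8, also known as interleukin 8, had 1465 and 1458 CPM at 6 h, then 43.3 and 47 CPM at 24 h (log2 fold change −5.02 with SE 0.15, adjusted p of 5.31e-11 by edgeR). CXCL3 had 615 and 649 CPM at 6 h, then 7.1 and 7.47 CPM at 24 h (log2 fold change −6.44 with SE 0.12, adjusted p of 9.61e-13 by edgeR), and CXCL2 had 131 and 147 CPM at 6 h, then 3.03 and 3.2 CPM at 24 h (log2 fold change −5.47 with SE 0.13, adjusted p of 8.15e-12 by edgeR). In all 3 genes the 24 h libraries lay far below those of 6 h, and CXCL2 and CXCL3 ended below their 0 h means of 12.1 and 11.2 CPM. CXCL1 fell by 3.82 on the log2 scale, from 7.29 to 0.506 CPM in the mean. Growth factors of myeloid cells fell with them, CSF1 by 2.81 and CSF2 by 2.03.

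NF-kB, a family of factors held in the cytoplasm by IkB proteins, is the best known activator of these chemokines. The promoters of CXCL1, CXCL2 and CXCL3 (RefSeq, GRCh38.p14) are shown because the 3 genes share 1 run of letters that matches the NF-kB motif (GGGA, any 4 bases, CC) on both strands, 1 base apart, in capitals:
CXCL1 (chr4:73869285-73869354, plus strand): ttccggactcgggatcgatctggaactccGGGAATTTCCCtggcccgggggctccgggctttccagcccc
CXCL2 (chr4:74099233-74099302, minus strand): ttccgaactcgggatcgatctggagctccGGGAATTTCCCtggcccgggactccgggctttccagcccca
CXCL3 (chr4:74038728-74038797, minus strand): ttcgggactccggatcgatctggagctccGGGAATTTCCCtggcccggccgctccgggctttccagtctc
This pattern was in 17 of 26 promoters of the cytokine and NF-kB list (65.4%), 30.4% of promoters of genes tested and 25.1% of all promoters. It was also in 50% of promoters of the cholesterol list, 47.2% of the actin and adhesion list and 42.9% each of the lysosome and interferon lists. In the histone list it was in 6%. The cytokine and NF-kB list was chosen for NF-kB and also holds members that rose. Over all genes the pattern was in 30.1% of promoters of those called higher and 30.1% of those called lower. Of the genes for NF-kB itself, NFKB1 fell by 0.28, REL by 0.80 and RELB by 0.87, and RELA and NFKB2 were not called at −0.20 and 0.07. NFKBIA and TNFAIP3, inhibitors that NF-kB induces, fell by 1.52 and 1.97. The call of NFKB1 was lost without any 1 of the 4 libraries, with an edgeR adjusted p of up to 0.152.

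Other cytokines moved the opposite way over the same hours. IL1B, the precursor of interleukin 1 beta, rose from 0.299 and 0.142 CPM to 14.5 and 15.1 CPM (log2 fold change 6.09 with SE 0.23, adjusted p of 3.72e-10 by edgeR). CCL2, a chemokine for monocytes, rose from 106 and 115 CPM to 741 and 861 CPM (log2 fold change 2.86 with SE 0.13, adjusted p of 1.74e-09 by edgeR). Both 24 h libraries stood far above both 6 h libraries in each case. LIF rose by 1.22, ICAM1, an adhesion receptor, by 1.08, and PLAU and PLAUR, urokinase and its receptor, by 1.02 and 0.64. The list as a whole had 14 lower (43.8%, against 25.8% of all genes) and 9 higher (28.1%, against 30.8%) of 32 tested members. Its median was −0.23. Without 1 library that median ranged from −0.37 to −0.13.

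**Figure D2:**
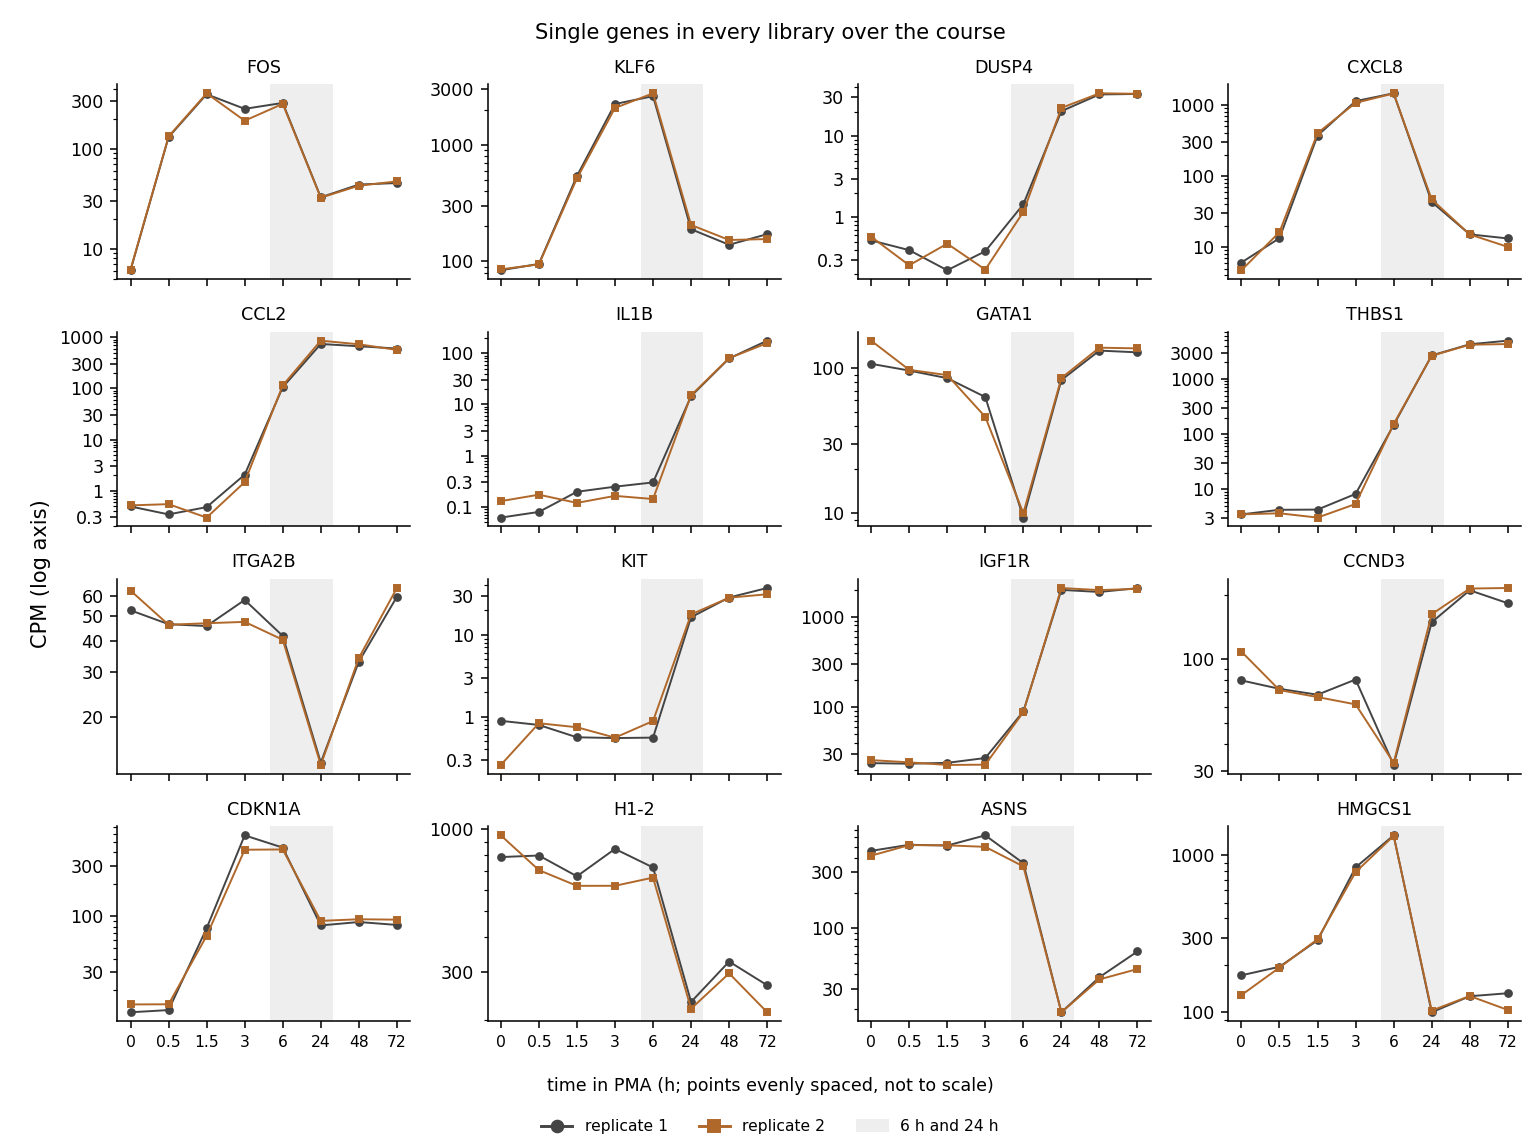
CPM of 16 genes in each of the 16 libraries on log axes, against time in PMA (evenly spaced), with 6 h and 24 h shaded and replicates as separate lines. FOS, KLF6, CXCL8, CDKN1A and HMGCS1 are high at 6 h and low at 24 h, GATA1 and CCND3 have their lowest values at 6 h, ITGA2B and ASNS theirs at 24 h, and IGF1R, KIT, THBS1, IL1B and DUSP4 rise within the shaded step.

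Most genes of mitosis and of DNA replication fell. Of 40 mitosis and cytokinesis genes, all tested, 27 fell (67.5%, against 25.8% of all genes), 2 rose and 11 were not called. The median log2 fold change was −0.66. MKI67, a marker of cycling cells, had 606 and 719 CPM at 6 h, then 236 and 248 CPM at 24 h (log2 fold change −1.45 with SE 0.11, adjusted p of 1.87e-07 by edgeR). AURKB, the kinase of the chromosomal passenger complex, had 47 and 48.9 CPM at 6 h, then 15 and 15.8 CPM at 24 h (log2 fold change −1.64 with SE 0.10, adjusted p of 3.18e-08 by edgeR), and CENPE, a kinetochore motor, fell by 1.60. For these 3 genes both 24 h libraries lay well below both 6 h libraries. MKI67 (346 and 367 CPM at 0 h) and CENPE (141 and 73.6 CPM) fell from levels raised by 6 h. AURKB had 55.9 and 67.9 CPM at 0 h, above its 6 h level. CDC25B, a phosphatase that activates cyclin-dependent kinases, and MAD2L1, of the spindle checkpoint, rose by 0.60 and 0.52. The call of MAD2L1 was lost without replicate 1 of 6 h (log2 fold change 0.49, edgeR adjusted p 0.0562). AURKA, BUB1 and CENPF were not called, at 0.06, −0.08 and −0.24.

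Of 44 DNA replication genes 27 fell (61.4%, against 25.8% of all genes), 7 rose and 10 were not called, with a median of −0.53. RRM2, a subunit of ribonucleotide reductase, had 541 and 595 CPM at 6 h, then 166 and 183 CPM at 24 h (log2 fold change −1.70 with SE 0.09, adjusted p of 7.6e-09 by edgeR). At 0 h it had 96.1 and 99.8 CPM, below both 24 h libraries. GINS3, of the replicative helicase, had 182 and 190 CPM at 6 h, then 45 and 47 CPM at 24 h (log2 fold change −2.01 with SE 0.09, adjusted p of 1.61e-09 by edgeR); its 0 h mean was 21.8 CPM, so it fell from a level raised by 6 h. The helicase subunits split, with MCM7, MCM4, MCM5 and MCM3 lower by 1.12, 0.93, 0.91 and 0.67 and MCM2 and MCM6 higher by 0.45 and 0.33. UNG, a uracil glycosylase, and PRIM1, the catalytic subunit of primase, were the members that rose most, by 1.25 and 0.76. Of the 34 calls 27 were made in every fit without 1 library (4 rose without replicate 2 of 24 h), and the calls of MCM2 (edgeR adjusted p up to 0.077) and MCM6 (up to 0.156) were not among them.

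Replication-dependent histone genes, which are transcribed in S phase, had the highest share of lower calls among the 17 lists. Of 55 members 43 were tested, 40 fell (93%, against 25.8% of all genes) and the other 3 were not called. The list median of the log2 fold change was −1.64 (−1.52 with scaling to total counts). All 40 calls were made again in each fit without 1 library. H1-2, a linker histone, had 723 and 663 CPM at 6 h, then 232 and 219 CPM at 24 h (log2 fold change −1.62 with SE 0.16, adjusted p of 1.31e-06 by edgeR). H4C14 had 276 and 227 CPM at 6 h, then 42.2 and 42.9 CPM at 24 h (log2 fold change −2.56 with SE 0.24, adjusted p of 8.87e-07 by edgeR), and H2AC20 had 89.2 and 127 CPM at 6 h, then 13.9 and 20.1 CPM at 24 h (log2 fold change −2.66 with SE 0.27, adjusted p of 2.55e-06 by edgeR). Both 24 h libraries lay far below both 6 h libraries for each of these genes. The median level of the list was 6.14 and 6.39 log2 CPM at 6 h and 4.39 and 4.47 at 24 h, the lowest of the 8 time points, against 5.66 and 5.78 at 48 h. H4C14 overlaps H3C14, and histone genes resemble each other closely, so single members are less certain than the list. The 3 members without a call were H3C6, H2BC6 and H3C4, the last with 0 reads at both times. Histone messages mostly lack a poly(A) tail, and the libraries here were made by depletion of ribosomal RNA.

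Short elements known from promoters of these genes were counted in the RefSeq promoters. The cell cycle homology region TTTGAA was in 22 of 32 mitosis promoters (68.8%), 10.5% of those of genes tested and 15.4% of all promoters. The letters TTTNNCGC, part of the E2F site, were in 21 of 38 DNA replication promoters (55.3%), 9.8% of those of genes tested and 6.9% of all. CCAAT, bound by NF-Y, was in 43 of 50 histone promoters (86%) and 24 of 32 mitosis promoters (75%), against 36.4% and 35.7%. It was as frequent in the list of ER translocation, folding and glycosylation genes (24 of 33, 72.7%), where most calls were rises. The cholesterol list had it in 72.7% of promoters, the ATF4 list in 60.9%, the DNA replication list in 57.9% and the oxidative phosphorylation list in 17.1%. All were searched on both strands. Over all genes called lower and higher, TTTGAA was in 12.2 and 9.01% of promoters and TTTNNCGC in 10.9 and 9.54%. For CCAAT these shares were 38.6 and 34.4%. The sequences shown are 1 element for each list, in capitals, in genes that fell (RefSeq, GRCh38.p14):
MKI67 (chr10:128126424-128126482, minus strand): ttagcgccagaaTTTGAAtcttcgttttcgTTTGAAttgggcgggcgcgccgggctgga
CDCA8 (chr1:37692463-37692515, plus strand): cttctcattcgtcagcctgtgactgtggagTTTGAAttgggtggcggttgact
PRC1 (chr15:90994536-90994585, minus strand): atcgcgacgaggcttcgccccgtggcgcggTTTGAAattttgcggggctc
MCM7 (chr7:100101398-100101436, minus strand): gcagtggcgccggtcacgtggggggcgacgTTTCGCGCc
H1-5 (chr6:27867607-27867671, minus strand): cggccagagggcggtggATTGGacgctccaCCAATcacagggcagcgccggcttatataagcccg
H2BC18 (chr1:149812416-149812480, minus strand): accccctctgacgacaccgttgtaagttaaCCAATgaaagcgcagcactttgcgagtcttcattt
MKI67, CDCA8 and PRC1 hold TTTGAA within 50 bases of the start, and those elements began 47 and 29, 23 and 20 bases before it. MCM7 holds the E2F letters 9 bases before the start. CDCA8 fell by 1.33, PRC1 by 1.23 and H1-5 by 2.52 on the log2 scale. H2BC18 fell by 2.48.

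Genes that brake or open the G1 phase moved in both directions. CDKN1A, the p21 inhibitor of cyclin-dependent kinases, had 444 and 426 CPM at 6 h, then 82 and 90.5 CPM at 24 h (log2 fold change −2.33 with SE 0.15, adjusted p of 2.78e-08 by edgeR), still above its 0 h mean of 13.6 CPM. GADD45A, a growth arrest gene, had 684 and 771 CPM at 6 h, then 210.3 and 251 CPM at 24 h (log2 fold change −1.66 with SE 0.13, adjusted p of 2.54e-07 by edgeR), and GADD45B fell by 1.74. CCND3, cyclin D3, rose from 31.9 and 32.7 CPM to 149 and 163 CPM (log2 fold change 2.27 with SE 0.15, adjusted p of 4.84e-08 by edgeR), and CCND1, cyclin D1, from 45.3 and 48.6 CPM to 161 and 178 CPM (log2 fold change 1.85 with SE 0.10, adjusted p of 4.91e-09 by edgeR). Thus the 24 h libraries were low for CDKN1A and high for both cyclins. CCND2 went the other way and fell by 0.88. CDKN2C and RBL2, inhibitors of the G1 kinases and of E2F, rose by 1.77 and 1.44, and CDKN1B was not called at 0.12. GADD45G was near 1 CPM and its call (−1.99) was lost without replicate 1 of 6 h (−1.57) and without either 24 h library (−1.81 and −2.31), with an edgeR adjusted p up to 0.111. Over the list 6 of 19 tested members rose (31.6%, against 30.8% of all genes) and 7 fell (36.8%, against 25.8%). The median of 0.12 was 0.05 to 0.08 without 1 library.

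Lineage genes were examined next, since PMA is used on K562 cells to obtain a state like that of megakaryocytes. Of 25 megakaryocyte and platelet genes 17 passed the filter, 8 rose (47.1%, against 30.8% of all genes), 2 fell and 7 were not called. THBS1, thrombospondin 1 of platelet alpha granules, had 146 and 152 CPM at 6 h, then 2654 and 2618 CPM at 24 h (log2 fold change 4.14 with SE 0.17, adjusted p of 6.82e-10 by edgeR). ITGB3, integrin beta 3, rose by 3.16 on the log2 scale, with means of 56.1 CPM at 6 h and 502 CPM at 24 h. NFE2, a factor needed for platelet release, rose by 3.34, with means of 1.86 and 18.9 CPM. MEIS1 and ITGA2, a homeobox factor and a collagen receptor subunit, rose by 2.13 and 2.24, and CD9 by 1.04. The rise of CD226 (0.48) was not called without any 1 of the 4 libraries (edgeR adjusted p up to 0.195). ITGA2B, which pairs with ITGB3 in the platelet fibrinogen receptor, went against them with 41.7 and 40.3 CPM at 6 h, then 13.2 and 12.9 CPM at 24 h (log2 fold change −1.65 with SE 0.11, adjusted p of 5.73e-08 by edgeR). Its 24 h level was the lowest of the course, and its 72 h mean was 61.9 CPM. RUNX1 also fell, by 0.73. MMRN1, multimerin 1, had 0 reads at 6 h and 0.194 and 0.187 CPM at 24 h. That is at least 1.62-fold higher against the floor of 3 reads per library. VWF and TUBB1 were not called at 0.46 and 0.19, and GP1BA, GP9, PF4 and SELP were among the members under the filter. The list median was 0.48. It ranged from 0.38 to 0.74 without 1 library and reached 1.05 among the other alternatives. The summed TPM of 16 megakaryocyte markers went from 228 and 227 to 1031 and 927, and 7 of the 16 were above 1 TPM at each time. Markers of other blood cells were summed as well. For 6 monocyte markers the summed TPM was 153 and 180 at 6 h and 218 and 274 at 24 h. Of these 6 markers 2 and then 3 were above 1 TPM. CD68 made up most of the monocyte sum, with mean TPM of 100 at 6 h and 200 at 24 h. Of the other monocyte markers CSF1R rose by 4.26 on the log2 scale, and LYZ and ITGAM fell by 1.02 and 0.85. The call of ITGAM was not kept in every fit without 1 library. The sum was 13.97 and 12.03 and then 16.97 and 15.48 for 8 granulocyte markers, with 2 and then 3 above 1 TPM, and 31.6 and 31.2 and then 53.4 and 51.4 for 5 lymphoid markers, with 2 above 1 TPM at each time. Among the granulocyte markers CEBPE rose, CSF3R fell by 1.34 on the log2 scale and MPO was not called at 0.15. TPM are not TMM-normalised, and ATP5F1B, which was not called, had mean TPM of 616 at 6 h and 680 at 24 h. The part of these other cell markers in the changes of the lineage lists was not tested.

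More erythroid genes fell than rose. Of 30 members, all tested, 17 fell (56.7%, against 25.8% of all genes), 7 rose (23.3%, against 30.8%) and 6 were not called. The list median was −0.64. HBZ, embryonic zeta globin, had 25 and 31.6 CPM at 6 h, then 1.94 and 2.68 CPM at 24 h (log2 fold change −3.59 with SE 0.34, adjusted p of 1.23e-06 by edgeR), and ALAS2, the first enzyme of haem synthesis in red cells, fell by 3.38, from 18.6 to 1.79 CPM. HBG2, fetal gamma globin, had 934 and 764 CPM at 6 h, then 472 and 422 CPM at 24 h (log2 fold change −0.93 with SE 0.21, adjusted p of 0.00193 by edgeR). Its reads can also belong to HBG1, a near-identical copy, and it overlaps other annotated genes. GYPB, a glycophorin of the red cell surface, fell by 2.79, and TFRC, the transferrin receptor, fell by 0.89. AHSP, the alpha globin chaperone, was lower by a ratio of reads of 22.1 (95% counting interval 9.03 to 69.99) and few reads at 24 h. Its log2 fold change of −4.40 was −5.31 without replicate 2 of 24 h. The call of HBG1 (−0.70) was lost without 1 library (edgeR adjusted p up to 0.0587).

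GATA1, the master regulator of erythroid and megakaryocyte genes, was among the 7 that rose. It had 9.3 and 9.98 CPM at 6 h, then 83 and 85.6 CPM at 24 h (log2 fold change 3.13 with SE 0.18, adjusted p of 1.04e-08 by edgeR), so both 24 h libraries lay far above both 6 h libraries. The 0 h mean was 131 CPM and that of 3 h 54.7, so 6 h held its lowest level of the course and 24 h 84.3 CPM. TAL1, its partner, rose by 0.77, EPOR, the erythropoietin receptor, by 1.49 and HEMGN by 1.15. The other risers were UROS, an enzyme of haem synthesis, SLC25A37, an iron carrier of mitochondria, and EPB41, a protein of the membrane skeleton, with log2 fold changes of 1.13, 1.00 and 0.66. KLF1, an erythroid activator, was not called at 0.15. The GATA letters AGATAA were in 6 of 15 erythroid promoters (40%), 2 of 17 megakaryocyte promoters (11.8%), 5.92% of those of genes tested and 10.5% of all, on either strand. Among all genes called higher and lower these letters were in 5.82 and 6.24% of promoters. For changes of at least 4-fold the shares were 9.97 and 9.44%. A link of the element to the direction of change was not tested. ALAS2 and EPB42, a red cell membrane protein, are shown because both held the element and both fell while GATA1 rose (RefSeq, GRCh38.p14, element in capitals):
ALAS2 (chrX:55031069-55031134, minus strand): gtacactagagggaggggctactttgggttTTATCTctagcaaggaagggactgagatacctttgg
EPB42 (chr15:43221044-43221109, minus strand): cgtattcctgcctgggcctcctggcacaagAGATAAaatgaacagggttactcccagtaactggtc
EPB42 fell by 3.46, from 0.994 to 0.0784 CPM in the mean. The minus-strand reading of the element appears in ALAS2.

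Genes of the actin cytoskeleton and of adhesion moved in both directions. RHOB, a GTPase that is itself an immediate-early gene, had 179 and 181 CPM at 6 h, then 16.8 and 18.8 CPM at 24 h (log2 fold change −3.33 with SE 0.10, adjusted p of 5.31e-11 by edgeR). ACTG1 had 5894 and 6016 CPM at 6 h, then 938 and 1052 CPM at 24 h (log2 fold change −2.58 with SE 0.14, adjusted p of 7.23e-09 by edgeR) and ACTB, beta-actin, had 6539 and 6664 CPM at 6 h, then 3001 and 3323 CPM at 24 h (log2 fold change −1.06 with SE 0.12, adjusted p of 6.88e-06 by edgeR). The 6 h libraries were the high ones for all 3, and the 24 h level of ACTG1 was near its 0 h mean of 958 CPM. ZYX, a focal adhesion protein, fell by 1.31. ITGA5, the fibronectin receptor subunit, rose from 237 and 223 CPM to 787 and 799 CPM (log2 fold change 1.78 with SE 0.12, adjusted p of 4.79e-08 by edgeR), and MYL9, a myosin light chain, from 2.99 and 3.36 to 9.39 and 9.63 CPM (log2 fold change 1.58 with SE 0.19, adjusted p of 9.15e-06 by edgeR). LIMS1, GSN, CAPG and ACTN1 rose by 1.02, 0.96, 0.88 and 0.72, while FLNA and VCL were not called at −0.00 and 0.12. VIM, vimentin, had 4538 and 4681 CPM at 6 h, then 6006 and 6687 CPM at 24 h (log2 fold change 0.46 with SE 0.11, adjusted p of 0.00292 by edgeR), and its call was lost without replicate 2 of 24 h (0.34, edgeR adjusted p 0.0533). In all 11 of 40 members rose and 11 fell (27.5% each), shares near the background, with a median of 0.11 that lay between 0.01 and 0.16 without 1 library. Without replicate 1 of 24 h 7 members were lower.

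Amino acid supply genes under ATF4, the factor of the integrated stress response, fell sharply in part. SLC7A11, the cystine transporter, had 611 and 536 CPM at 6 h, then 33.1 and 26.6 CPM at 24 h (log2 fold change −4.27 with SE 0.20, adjusted p of 1.54e-09 by edgeR), and ASNS, asparagine synthetase, had 359.8 and 337 CPM at 6 h, then 18.9 and 18.9 CPM at 24 h (log2 fold change −4.21 with SE 0.16, adjusted p of 3.74e-10 by edgeR). The groups were far apart in both genes. PHGDH and PSAT1, of serine synthesis, fell by 2.93 and 2.08, whereas PSPH, the last enzyme of that pathway, rose by 0.65. Among further members, ALDH1L2, of mitochondrial folate metabolism, fell by 2.18 and ATF4 itself by 1.03. The stress effectors did not follow as one: DDIT3 fell by 0.72, TRIB3 rose by 0.68, DDIT4 rose from 23.1 and 23.7 to 45.7 and 47.3 CPM (log2 fold change 0.99 with SE 0.13, adjusted p of 2.35e-05 by edgeR), and CHAC1 was not called at 0.03. SLC38A2, a glutamine transporter, had 3485 and 3149 CPM at 6 h, then 1935 and 1776 CPM at 24 h (log2 fold change −0.84 with SE 0.20, adjusted p of 0.0025 by edgeR). Of 28 members 16 fell (57.1%, against 25.8% of all genes), 6 rose and 6 were not called, with a median of −0.60. The ATF4 element TGATGNAA was in 6 of 23 promoters of the list (26.1%), 2.02% of those of genes tested and 3.67% of all. ASNS is shown because it held the element and had 1 of the steepest falls of the list (RefSeq, GRCh38.p14, capitals marking the element, 68 bases before the start):
ASNS (chr7:97872439-97872506, minus strand): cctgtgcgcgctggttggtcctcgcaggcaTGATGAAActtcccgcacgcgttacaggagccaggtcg

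Many cholesterol genes fell as well, led by HMGCS1, which makes the precursor of mevalonate, at 1343 and 1332 CPM at 6 h, then 100.3 and 103 CPM at 24 h (log2 fold change −3.72 with SE 0.14, adjusted p of 4.27e-10 by edgeR). At 24 h HMGCS1 was below its 0 h mean of 151 CPM. Of 30 members 16 fell (53.3%, against 25.8% of all genes), 7 rose and 7 were not called, with a median of −0.39. Without replicate 2 of 6 h 4 rose, as without replicate 2 of 24 h. LSS, lanosterol synthase, fell from 59.5 and 60.1 to 19.98 and 20.5 CPM (log2 fold change −1.56 with SE 0.12, adjusted p of 1.75e-07 by edgeR). INSIG1, which holds back SREBP processing, fell by 1.29. SQLE, squalene epoxidase, was not called, with 939 and 985 CPM at 6 h, then 802 and 868 CPM at 24 h (log2 fold change −0.20 with SE 0.10, adjusted p of 0.102 by edgeR). ABCA1, which exports cholesterol, rose from 5.08 and 4.6 to 12.4 and 11.3 CPM (log2 fold change 1.29 with SE 0.20, adjusted p of 0.000116 by edgeR), and SREBF1 rose by 1.19 while SREBF2 fell by 0.65. The enzymes PMVK and NSDHL rose by 1.46 and 0.35, the latter a call lost without 1 library (edgeR adjusted p up to 0.19).

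Secretory pathway genes rose or were not called, with 1 exception. Of 38 genes of ER translocation, folding and glycosylation 20 rose (52.6%, against 30.8% of all genes), 1 fell and 17 were not called. The median of 0.29 ranged from 0.16 to 0.36 without 1 library. SEC24D, of the COPII coat, had 35.6 and 33.1 CPM at 6 h, then 150.1 and 154 CPM at 24 h (log2 fold change 2.15 with SE 0.08, adjusted p of 2.84e-10 by edgeR), and SDF2L1, an ER chaperone component, had 16.6 and 12.7 CPM at 6 h, then 54.8 and 55.8 CPM at 24 h (log2 fold change 1.92 with SE 0.22, adjusted p of 5.86e-06 by edgeR). SSR1, HSPA5 and XBP1, a translocon subunit, the chaperone BiP and the factor of the unfolded protein response, rose by 1.34, 0.97 and 1.09. ERP29, a lumenal chaperone, was the member that fell, from 76.4 and 87.8 to 32.6 and 34.9 CPM (log2 fold change −1.28 with SE 0.12, adjusted p of 1.21e-06 by edgeR). Of the 20 rises 12 were made in every fit without 1 library, and 12 members rose without replicate 1 of 6 h or without replicate 2 of 24 h. The smaller ones were not, for example CALR (0.34, edgeR adjusted p up to 0.462).

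Lysosome genes rose in the same share. Of 39 members 38 were tested, 20 rose (52.6%, against 30.8% of all genes), 7 fell and 11 were not called, with a median of 0.33. The number that fell was 3 to 5 without 1 library, with 3 without replicate 1 of 24 h and 4 without replicate 1 of 6 h or replicate 2 of 24 h. MCOLN1, a calcium channel of the lysosome membrane, had 8.71 and 8.25 CPM at 6 h, then 21.3 and 23.9 CPM at 24 h (log2 fold change 1.42 with SE 0.19, adjusted p of 2.28e-05 by edgeR). Both 24 h libraries lay clearly above both 6 h libraries. The cathepsins CTSB, CTSA, CTSD and CTSC rose by 1.36, 1.39, 1.06 and 1.06, CD63, a tetraspanin of lysosomes and dense granules, by 0.83, and TFEB and TFE3, factors of lysosome genes, by 0.76 and 0.70. NPC1, the cholesterol exporter of the lysosome, fell from 485 and 485 to 236 and 241 CPM (log2 fold change −1.02 with SE 0.08, adjusted p of 2.53e-07 by edgeR), and SQSTM1, an autophagy receptor, from 1655 and 1605 to 985 and 1019 CPM (log2 fold change −0.70 with SE 0.13, adjusted p of 0.000579 by edgeR). Of these calls that of TFEB was lost without 1 library (edgeR adjusted p up to 0.0818), as was that of GPNMB (−0.76, up to 0.127). The E-box CACGTG, the core of the site for TFEB and also for MYC and USF, was in 8 of 28 lysosome promoters (28.6%), 9.59% of those of genes tested and 7.43% of all. It was also in 13 of 34 nucleolar promoters (38.2%), in 5 of 15 of the list of CDK inhibitors and cyclins (33.3%) and in 9.85% of the promoters of all genes called higher. CTSA and MCOLN1 are shown because each held the element 2 times close to the start and each rose (RefSeq, GRCh38.p14, E-boxes in capitals):
CTSA (chr20:45891280-45891334, plus strand): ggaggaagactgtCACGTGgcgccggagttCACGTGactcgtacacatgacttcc
MCOLN1 (chr19:7522580-7522623, plus strand): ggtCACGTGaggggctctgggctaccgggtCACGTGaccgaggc

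**Figure D3:**
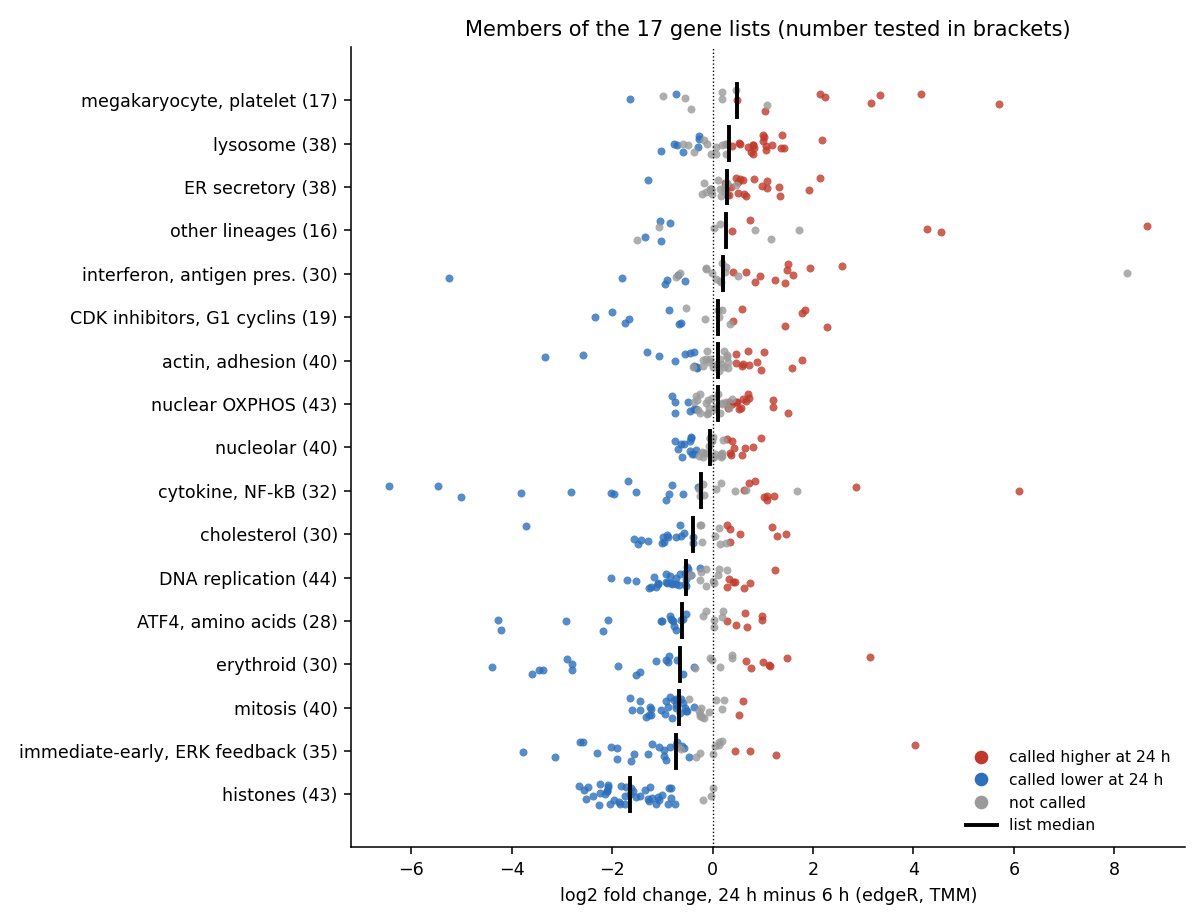
Log2 fold change from 6 h to 24 h of each tested member of the 17 gene lists, coloured by its call, with the list median as a black bar. Histone genes lie almost wholly below 0 (median −1.64), immediate-early, mitosis, erythroid and ATF4 lists lie mostly below it, secretory and lysosome lists mostly above, and the points beyond 5 include MMRN1, CEBPE and TAP1, whose place depends on the prior count because they had 0 reads at 6 h.

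Energy and ribosome genes moved less. Of 43 nuclear oxidative phosphorylation genes 15 rose (34.9%, against 30.8% of all genes) and 7 fell (16.3%, against 25.8%), with a median of 0.11. Without replicate 1 of 6 h 9 rose and 2 fell, without replicate 2 of 24 h 9 rose and 3 fell, and without replicate 1 of 24 h 12 rose and 4 fell. The median ranged from 0.06 to 0.15 without 1 library. NDUFA8 and NDUFV2 of complex I each rose by 1.20, and COX7C and UQCRH fell by 0.81 and 0.75. ATP5F1B and SDHA, with 806 and 739.5 CPM at 6 h, then 740.4 and 723 CPM at 24 h and 374 and 375 CPM at 6 h, then 348 and 356 CPM at 24 h, were not called. The 13 mitochondrially encoded genes had edgeR adjusted p from 0.103 to 0.648 and a median log2 fold change of −0.36. Of 40 nucleolar genes 12 fell (30%, against 25.8% of all genes) and 9 rose (22.5%, against 30.8%). Their median of −0.04 was 0.08 with scaling to total counts and from −0.12 to 0.01 without 1 library. The number that rose was 5 without replicate 1 of 6 h and 4 without replicate 2 of 24 h. NPM1, the histone chaperone nucleophosmin, had 1532 and 1590 CPM at 6 h, then 893 and 958 CPM at 24 h (log2 fold change −0.75 with SE 0.11, adjusted p of 7.51e-05 by edgeR), and WDR12, of the ribosome assembly complex with PES1 and BOP1, had 46.1 and 45.2 CPM at 6 h, then 87.7 and 89.4 CPM at 24 h (log2 fold change 0.96 with SE 0.09, adjusted p of 7.67e-07 by edgeR).

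Interferon and antigen presentation genes were mixed. Of 38 members 30 were tested, 11 rose (36.7%, against 30.8% of all genes), 6 fell (20%, against 25.8%) and 13 were not called. The median of 0.22 ranged from 0.13 to 0.32 without 1 library. STAT2, a signal carrier of interferon receptors, rose by 1.49, and ISG15, a ubiquitin-like modifier, rose from 1.79 and 1.59 to 6.49 and 6.47 CPM (log2 fold change 1.94 with SE 0.20, adjusted p of 2.68e-06 by edgeR). IFITM1, IFITM2 and IFITM3, membrane proteins that restrict virus entry, fell by 0.95, 0.91 and 0.69, although IFITM1 and IFITM2 overlap. IRF7, a factor that drives interferon genes, had 1.54 and 4.28 CPM at 6 h, then 0 and 0.125 CPM at 24 h, a ratio of reads of 40.1 (95% counting interval 18 to 111). Its 6 h replicates lay well apart, and its log2 fold change of −5.24 was −9.60 without replicate 2 of 24 h and −4.33 without replicate 2 of 6 h. IFIT1 fell by 1.81 (1.36 to 2.41 without 1 library). TAP2, the peptide transporter, had 2.56 and 0.531 CPM at 6 h, then 7.29 and 10.7 CPM at 24 h (log2 fold change 2.59 with SE 0.65, adjusted p of 0.00438 by edgeR); without replicate 2 of 6 h the value was 1.81 (edgeR adjusted p 0.0509) and without replicate 1 of 6 h it was 4.07. B2M, the light chain of MHC class I, had 359.9 and 377 CPM at 6 h, then 476 and 496 CPM at 24 h (log2 fold change 0.40 with SE 0.10, adjusted p of 0.00494 by edgeR), a call lost without replicate 1 of 6 h (0.35) or replicate 2 of 24 h (0.33), with an edgeR adjusted p up to 0.0736.

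**Figure D4:**
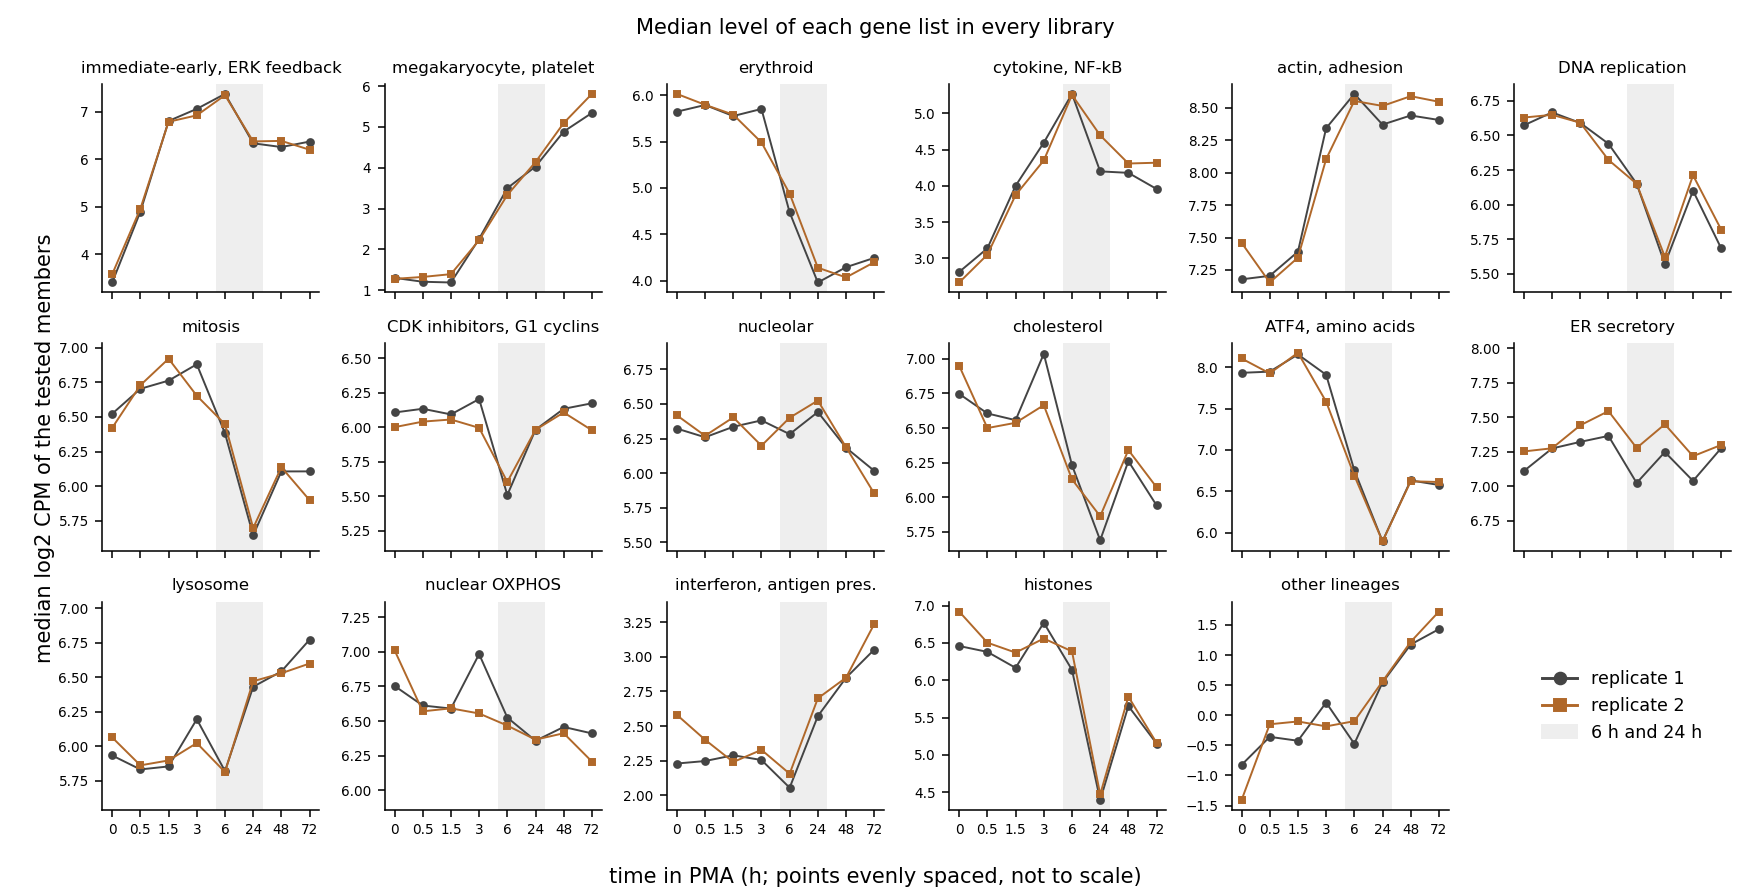
Median log2 CPM of the tested members of each list in all 16 libraries against time in PMA (evenly spaced), replicates as separate lines and 6 h and 24 h shaded. Histone, mitosis, DNA replication and ATF4 lists have their lowest medians at 24 h, immediate-early and cytokine lists their highest at 6 h, and lysosome and interferon lists rise from 6 h to 24 h.

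Across all genes, the largest fold changes were taken by a rule that asked for at least 10 CPM in both libraries of the higher group. The rule also asked that the 6 h and 24 h libraries not overlap and that replicates lie within 4-fold of each other. Separation of the groups was thus part of the selection. The 10 largest rises were ENTREP3, PCDHGC5, PCSK1, RLN3, PI16, GPR4, IGFBP5, SERPINA1, IL1B and ZNF185. PCSK1 (chromosome 5, 96390415 to 96434143), a protease that cuts prohormones, had 0.0854 and 0.0708 CPM at 6 h, then 23.8 and 22.3 CPM at 24 h, a ratio of reads of 296 (95% counting interval 115 to 1086; edgeR adjusted p 1.99e-09). RLN3, the peptide hormone relaxin 3, had 0.0427 and 0.106 CPM at 6 h, then 18.1 and 22 CPM at 24 h, a ratio of reads of 264 (103 to 971). PI16, a secreted peptidase inhibitor, had 0.213 and 0.212 CPM at 6 h, then 34.2 and 35.3 CPM at 24 h (log2 fold change 7.33 with SE 0.22, adjusted p of 5.31e-11 by edgeR). These 3 genes were close to undetected at 6 h and plainly present in both 24 h libraries. GPR4, a proton-sensing receptor that overlaps OPA3, rose by 6.48, IGFBP5, a binding protein of insulin-like growth factors, by 6.47 and ZNF185, an actin-associated LIM protein, by 5.39. SERPINA1, alpha 1 antitrypsin, had 0.213 and 0.248 CPM at 6 h, then 11.9 and 23.3 CPM at 24 h (log2 fold change 6.23 with SE 0.49, adjusted p of 1.69e-06 by edgeR), with its 24 h replicates well apart and values of 5.62 to 6.63 without 1 library.

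PCDHGC5 belongs to a protocadherin cluster whose genes share exons, so its reads could belong to a neighbour. It had 0.0854 and 0 CPM at 6 h, then 12.2 and 14.7 CPM at 24 h, and its log2 fold change of 8.31 was 11.85 without replicate 1 of 6 h and 7.23 without replicate 2. The value of RLN3 was 7.95, and from 7.50 to 8.75 without 1 library. ENTREP3 (chromosome 1, 155247205 to 155255483) was listed at 0 in both 6 h libraries and had 15.6 and 23.5 CPM at 24 h. That is at least 167-fold higher against the floor. It had reads in both libraries of each of the other 7 time points, with a 3 h mean of 10.3 CPM.

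The 10 largest falls were TIMM22, CPLX1, CXCL3, ENSG00000241877, RPL19P21, RPL19P16, CXCL2, ADGRB1, TRIM67 and CXCL8. CPLX1 (chromosome 4, 784957 to 826198), complexin 1 of the vesicle fusion machinery, had 13.2 and 15.6 CPM at 6 h, then 0.0646 and 0.145 CPM at 24 h (log2 fold change −6.95 with SE 0.42, adjusted p of 1.73e-08 by edgeR), and values of −7.76 to −6.59 without 1 library. ADGRB1, an adhesion receptor, had 15.9 and 16.8 CPM at 6 h, then 0.387 and 0.436 CPM at 24 h (log2 fold change −5.29 with SE 0.25, adjusted p of 2.29e-09 by edgeR). TRIM67, a ubiquitin ligase, had 29.4 and 33.7 CPM at 6 h, then 0.904 and 0.892 CPM at 24 h (log2 fold change −5.13 with SE 0.17, adjusted p of 1.37e-10 by edgeR). All 3 had 0 h means below their 6 h level. Both 24 h libraries lay below both 6 h libraries, which the rule asked for. TIMM22, an import gene of mitochondria that overlaps ABR, was listed at 0 in both 24 h libraries. It was also listed at 0 in both libraries at 0, 0.5 and 48 h and in 1 of the 2 at 3 h and 72 h, and its call was lost without either 24 h library, so this is a listing at 0 and not a measured fall.

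**Figure D5:**
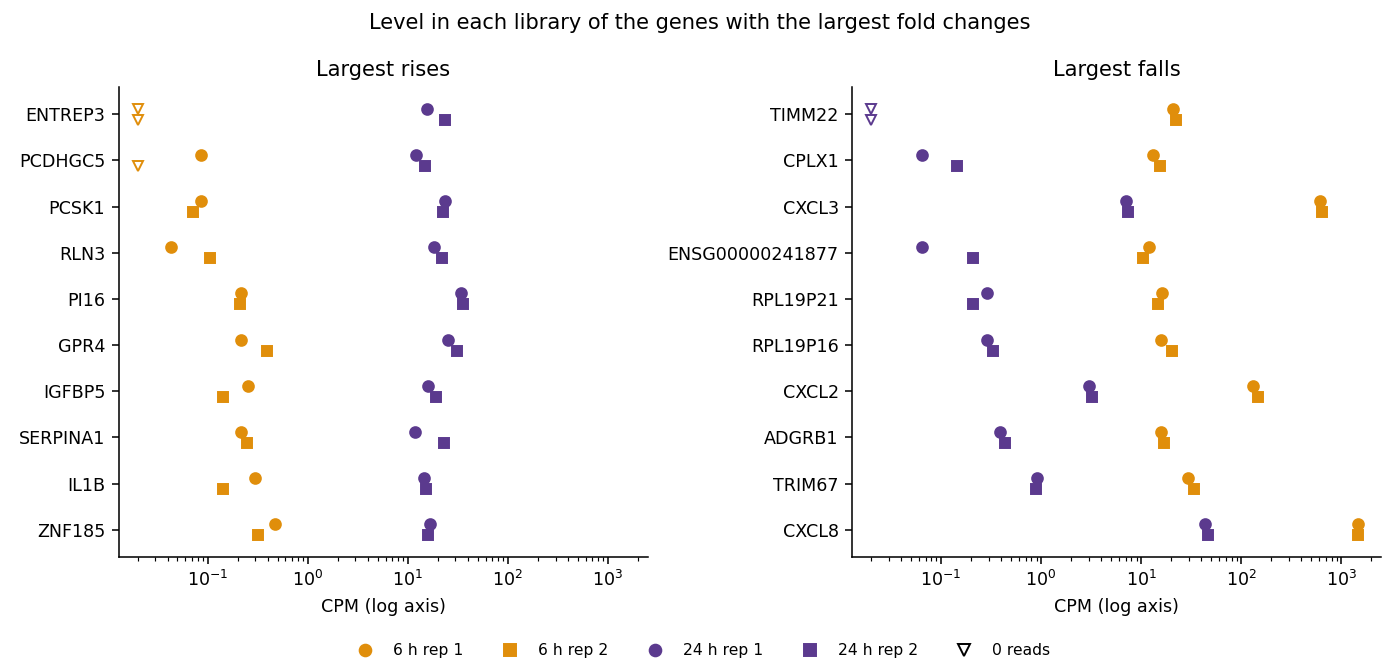
CPM of the 10 genes with the largest rises (left) and falls (right) in each of the 4 libraries, on a log axis, with 6 h in orange, 24 h in purple, circles for replicate 1, squares for replicate 2 and open triangles for 0 reads. The naming rule asked that the groups not overlap, so their separation is no result. CXCL8 and CXCL3 are the falls with the highest 6 h values, 1458 to 1465 CPM and 615 to 649 CPM.

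In absolute terms, and under the same conditions on the libraries, TIMP1, THBS1, CD44, IGF1R, VIM, FTL, SLC20A1 and KRT8 gained the most CPM. TIMP1 (chromosome X, 47582313 to 47586789), an inhibitor of matrix metalloproteases, had 2692 and 3265 CPM at 6 h, then 9612 and 11952 CPM at 24 h (log2 fold change 1.86 with SE 0.21, adjusted p of 5.76e-06 by edgeR). IGF1R (chromosome 15, 98648539 to 98964530), the receptor of insulin-like growth factor 1, had 88.7 and 87.2 CPM at 6 h, then 1985 and 2083 CPM at 24 h (log2 fold change 4.53 with SE 0.11, adjusted p of 8.15e-12 by edgeR). CD44, the hyaluronan receptor, had 1553 and 1674 CPM at 6 h, then 3879 and 4222 CPM at 24 h (log2 fold change 1.33 with SE 0.10, adjusted p of 1.94e-07 by edgeR). In each of the 3 genes both 24 h libraries lay above both 6 h libraries, which the naming rule asked for. FTL, ferritin light chain, rose by 0.53, but its call was lost without replicate 1 of 6 h (0.47) or replicate 2 of 24 h (0.38). KRT8 shares an overlap with KRT18, and SLC20A1, a phosphate transporter, rose by 1.36.

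EEF1A1, ACTG1, ACTB, HSPA8, AHNAK, KLF6, EGR1 and MCL1 lost the most CPM. EEF1A1, the elongation factor that brings tRNA to the ribosome, fell by 0.59 on the log2 scale and HSPA8, a constitutive chaperone, by 1.07. AHNAK, a giant scaffold protein, had 4093 and 3873 CPM at 6 h, then 1422 and 1174 CPM at 24 h (log2 fold change −1.62 with SE 0.12, adjusted p of 1.06e-07 by edgeR). MCL1, a BCL2-family survival protein with a short-lived message, had 3304 and 3130 CPM at 6 h, then 1353 and 1318 CPM at 24 h (log2 fold change −1.27 with SE 0.13, adjusted p of 3.36e-06 by edgeR), against a 0 h mean of 275 CPM. Both 24 h libraries were below both 6 h libraries for each of these genes, which the naming rule asked for. The 6 h level of all 8 was above their 0 h mean.

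The step also went with base composition. Across genes the median log2 fold change was −0.13 in the fifth of genes with the lowest GC content of their transcripts and 0.30 in the fifth with the highest, and it was −0.08 and 0.27 in replicate 1 and −0.17 and 0.32 in replicate 2. Genes called higher had a median GC content of 51.4%, genes called lower 47.4% and all tested genes 48.8%. With the GC trend of each library removed, 10791 genes were called. The medians of 16 of the 17 lists kept their sign in all 17 alternatives tried, that one included, and the nucleolar median kept it in 15.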

How the data were processed

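RNA for 16 libraries of K562 cells in 25 nM PMA was depleted of ribosomal RNA and sequenced, per the labels' protocols. Trim Galore 0.4.3 and Salmon are named in the submitters' processing notes. The deposited files give, per the file headers, estimated counts of reads per transcript. They also give TPM, which the authors' quantification scaled by transcript length, per the file headers, and which were used here only for marker sums. No index or annotation is named in the sources used here.

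Estimated counts were summed per gene with the transcript-to-gene pairs of GENCODE 29 (167027 of 177456 transcripts matched, 94.1%), over 35052 genes, and rounded to whole numbers. Reads on unmatched transcripts (3.07 to 3.30% of the 4 libraries) stayed out of library sizes. All 16 libraries were fitted in edgeR 4.0.16 (R 4.3.3) with 1 mean per time point, TMM scaling, the default low-count filter (17559 genes) and the quasi-likelihood test of 24 h against 6 h, with Benjamini-Hochberg adjustment over all genes. SE were taken from the fit. The biological coefficient of variation was 0.124. limma 3.58.1, DESeq2 1.42.0 and other scalings, filters and thresholds were alternatives. An exact permutation of 2 against 2 libraries cannot go below a two-sided p of 0.333, so none was used. On counts simulated for this comparison (17079 genes, 200 changed) the fit recovered 58.2% of 2-fold and 88% of 4-fold changes. Of its 151 calls 6 were false. Far more genes were called in the data, so these rates need not carry over. Counting intervals are exact at 95% and cover counting error only.

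Genes were named by a rule. It took the 10 largest called rises and falls in log2 fold change and the 8 largest in CPM. For both, at least 10 CPM was needed in both libraries of the higher group. The 6 h and 24 h libraries could not overlap, and replicates had to lie within 4-fold, with values under 3 reads set to 3 reads. From each list the rule took the 2 largest called rises and falls and the 2 most abundant members. The groups, the 17 lists and the rule were chosen with earlier results of these data known, and further list members were named after their values were seen. Promoters came from the RefSeq table of GRCh38.p14. Transcripts of the same gene, near-identical copies and overlapping genes share reads. Some members of the lists are counted but not reported here by name.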

Additional observations from a re-analysis of the deposited data

Results flagged for a closer look

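In the 4 libraries of 6 h and 24 h, 3.17% of the reads on average lay on transcripts that the GENCODE 29 annotation ties to no gene, and no comparison used them. The share was 3.07 and 3.08% at 6 h and 3.23 and 3.30% at 24 h.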

How the results depend on the processing

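Of 120 named genes 74 kept their direction and their side of the threshold in those of the 17 alternatives that tested them, and 0 changed direction. With at least 10 counts asked for in each of the 4 libraries, 100 named genes were the same and the rest had no result. Against 9943 calls (5413 higher, 4530 lower), a test against a 2-fold change called 2160 genes, 1474 higher and 686 lower, and 119 list members in place of 383. An adjusted p under 0.01 left 2951 lower genes. Scaling to total counts gave 6233 higher and 3282 lower genes. Fits without 1 library called 7393 to 8746 genes, 4234 to 4883 higher and 3159 to 3863 lower, and 334 to 354 list members. limma called 10033 and DESeq2 9283 genes. The replicate block called 10298 genes, 5577 higher and 4721 lower. Same-numbered libraries deviated together between 6 h and 24 h (correlation 0.446) and in 24 of 28 pairs of time points (over 0.1; range −0.278 to 0.595). The labels tie the numbers to no shared culture or day and not all 28 passed, so the numbers were not taken as pairs. The simulated fit recovered 58.2% of 2-fold changes, but with 200 changed genes against 9943 called here, so its rates need not carry over. A gene without a call may still differ. At 6 h a gene under 0.117 CPM had fewer than 3 reads.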

Other observations

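Of 2090 pseudogenes tested 217 were higher (10.4%) and 576 lower (27.6%), with a median log2 fold change of −0.49. Of 15413 protein-coding genes 5183 were higher (33.6%) and 3944 lower (25.6%), with a median of 0.05. The difference between the classes was not tested. RPL19P16, RPL19P21 and ENSG00000241877, 3 of the largest falls, resemble RPL19, a ribosomal protein gene, and reads can be split between such copies. RPL19 itself had 1176 and 1132 CPM at 6 h, then 764 and 785 CPM at 24 h (log2 fold change −0.57, adjusted p of 0.00181 by edgeR). The value for ENSG00000241877 was −6.19, and −7.38 without replicate 2 of 24 h.

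KIT, the receptor of stem cell factor, rose by 4.54 on the log2 scale, from 0.555 and 0.885 CPM at 6 h to 16.4 and 17.7 CPM at 24 h. CSF1R, the receptor of macrophage growth factor, rose by 4.26. CEBPE, a granulocyte factor, had 0 reads at 6 h, with 1.29 and 1.66 CPM at 24 h, at least 12.6-fold above the floor of 3 reads per library. CD68, a lysosomal protein abundant in macrophages, rose by 0.75. The 4 members that fell were CSF3R (by 1.34), CD34 (1.04), LYZ, lysozyme (1.02), and ITGAM (0.85). The log2 fold change of ITGAM was −1.26 to −0.60 without 1 library, and its call was not kept in every such fit. PTPRC, the leukocyte phosphatase CD45, had a log2 fold change of 0.39 that was not called without any 1 of the 4 libraries (0.34 to 0.40). Of 16 tested members of the list 5 were higher (31.2%) and 4 lower (25%), shares near the 30.8% and 25.8% of all genes, with a median of 0.27.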
